A study of Homo sapiens with 6 samples.

Results

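The genes described here move iron into the cell, store it, release it from store and export it. They are 10 genes of the 61806 in the deposited table, each found as 1 row by its gene symbol: TFRC and SLC11A2 (uptake), FTH1, FTL, PCBP1 and NCOA4 (storage and release), SLC40A1 (export), IREB2 and ACO1 (control), and HMOX1 (iron release from heme). The study measured poly(A) RNA in 6 libraries of the human line HCT116, derived from a colorectal carcinoma. The labels describe 3 libraries as wildtype HCT116 cells given a non-targeting control (si-NC) and 3 as HCT116 cells with STRIP2 knocked down by a short interfering RNA (si-STRIP2). STRIP2 is part of STRIPAK, a complex that joins a phosphatase to kinases. The series title links it to LCN2, which encodes a secreted protein that binds iron-carrying siderophores, and to ferroptosis, an iron-dependent form of cell death. All cells were of this single line, and the labels do not name the short interfering RNA sequences, the time after transfection or whether replicates were grown as separate cultures, so p-values measure the spread between these libraries, which may be technical.

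Most cells take up iron bound to transferrin through the transferrin receptor, and the divalent metal transporter then carries it out of the endosome. Iron that is not used is delivered by poly(rC)-binding chaperones to ferritin, a shell of heavy and light chains, and NCOA4 takes ferritin to the lysosome when iron is needed. Ferroportin is the exporter. When iron is scarce, the iron regulatory proteins bind hairpins called iron-responsive elements (IREs). Binding in the 5′ UTR of a transcript blocks its translation, and binding in the 3′ UTR of the transferrin receptor transcript protects it from decay.

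The IREs are shown first because they divide the genes by the kind of control their transcripts carry. The UTRs of GENCODE 29 coding transcripts (GRCh38) were searched on the transcript strand for the loop CAGTGN with an unpaired C before the 5-base stem, where at least 4 of the 5 bases on one side of the loop could pair with those on the other (G with T allowed). The loop is in capitals in the following 30-base windows, read 5′ to 3′.
FTH1 5′ UTR: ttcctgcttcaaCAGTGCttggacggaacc
FTL 5′ UTR: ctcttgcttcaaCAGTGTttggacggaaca
SLC40A1 5′ UTR: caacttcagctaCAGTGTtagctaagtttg
TFRC 3′ UTR, element 1: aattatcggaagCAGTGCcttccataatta
TFRC 3′ UTR, element 2: cattatcgggagCAGTGTcttccataatgt
TFRC 3′ UTR, element 3: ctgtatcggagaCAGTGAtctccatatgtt
TFRC 3′ UTR, element 4: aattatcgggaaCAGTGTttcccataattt
SLC11A2 3′ UTR: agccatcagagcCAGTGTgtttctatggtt

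The FTH1 window lies at chr11:61967573-61967602 on the minus strand in exon 1, and the FTL window at chr19:48965335-48965364 on the plus strand in exon 1. The SLC40A1 window is at chr2:189580660-189580689 on the minus strand in exon 1. The 4 TFRC windows lie in exon 18 on the minus strand, from chr3:196050978-196051007 for element 1 through chr3:196050574-196050603 and chr3:196050509-196050538 to chr3:196050462-196050491 for element 4. The SLC11A2 window is at chr12:50988268-50988297 on the minus strand. All 5 stem pairs could form in FTH1, FTL, SLC40A1 and the 4 TFRC windows, and 4 of 5 in SLC11A2. The match was present in 7 of 8 coding transcripts of FTH1, 1 of 1 of FTL, 1 of 5 of SLC40A1, 3 of 4 of TFRC and 5 of 18 of SLC11A2. A match with 5 pairs occurred in the 5′ UTR of 0.189% of the 19032 genes that have one and in the 3′ UTR of 0.675% of 19558 genes, over UTRs of unequal length. With 4 pairs allowed these shares were 1.53% and 4.64%, and IREB2 and ACO1 each held 1 such 4-pair match in the 3′ UTR. A match describes the letters only. The search cannot find an element with another loop or a weaker stem. The numbers given to the TFRC windows therefore count matches, and need not be all the elements of that transcript. Counts per gene do not separate transcripts with an element from those without one.

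The libraries held 17184963 to 21721218 counts. Mitochondrial genes took 4.88% to 8.88% of counts in si-NC and 5.73% to 6.30% in si-STRIP2. Of the 7 colorectal epithelial markers, 6 had a mean of at least 1 FPKM, a fragment count scaled by exon length and depth. Their summed level was 691 to 721 FPKM in si-NC and 667 to 691 in si-STRIP2, and VIL1 was under 1 FPKM. The summed leukocyte and macrophage markers reached at most 0.55 FPKM, endothelial markers 0.10, erythroid markers 0.10 and hepatocyte markers 0.52. Fibroblast markers summed to 1.92 to 2.61 FPKM, of which COL1A1 was the largest, and COL1A2 was at 0 counts. STRIP2, the target, retained 72.6% of its control level.

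Of the 10 genes, FTH1, HMOX1 and IREB2 fell and TFRC and NCOA4 rose after STRIP2 knockdown, while FTL, PCBP1, SLC40A1, SLC11A2 and ACO1 did not pass the test. All 10 passed the filter on low counts. The 5 called genes (edgeR adjusted p under 0.05 over all genes) compare with 54.8% of the 15687 genes tested, 27.8% higher and 27.0% lower, so the share of called genes was near the background. Groups did not overlap in FPKM for the same 5 genes, against 58.6% of all genes tested. The median log2 fold change was -0.046 over the 10 genes and 0.014 over all genes tested. Against a null of a 1.2-fold change, FTH1 and HMOX1 were called, 2 of 10 genes beside 23.7% of all genes. In bulk RNA, a lower level in every cell and a lower level in a part of the cells cannot be told apart.

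**Figure D1:**
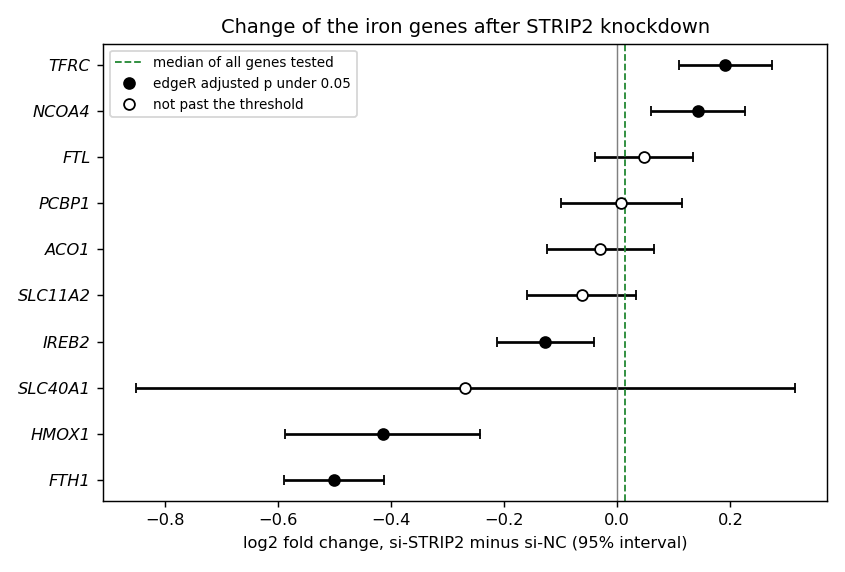
Log2 fold change (si-STRIP2 minus si-NC) of each of the 10 genes on the x axis, with its 95% interval from the edgeR fit as a bar. Filled points have an adjusted p under 0.05, the dashed line is the median of all genes tested (0.014), and FTH1 at -0.50 and TFRC at 0.19 lie at the ends.

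The largest RNA change among these genes was in FTH1, 1 of the 2 ferritin subunit genes. FTH1 (ENSG00000167996, chromosome 11, 61959718 to 61967634, minus strand) encodes the heavy chain, which carries the ferroxidase activity that oxidises iron for storage. Its level was 272.9, 268.12 and 287.58 FPKM in the si-NC libraries and 188.64, 204.22 and 193.95 FPKM in the si-STRIP2 libraries. All 3 si-STRIP2 libraries were below the lowest si-NC library, with a gap wider than the range of either group. The means were 276.2 ± 10.1 and 195.6 ± 7.92 FPKM (SD, n = 3), or 70.8% of the control. FTH1 fell by 0.50 on the log2 scale (standard error 0.043, 95% interval -0.59 to -0.41, edgeR adjusted p = 7.81e-12), a 1.42-fold lower level. Of all genes tested, 11.6% had a log2 fold change as low as this or lower.

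FTL (ENSG00000087086, chromosome 19, 48965309 to 48966879, plus strand) encodes the light chain, which aids the formation of the iron core. It had 625.77, 595.13 and 588.65 FPKM in si-NC and 644.76, 629.72 and 600.49 FPKM in si-STRIP2. The groups overlapped, and 2 si-STRIP2 libraries lay above all si-NC libraries. The change of FTL was 0.047 on the log2 scale (standard error 0.042, edgeR adjusted p = 0.356), and its 95% interval of -0.039 to 0.13 excluded a fall of the size seen for FTH1. Under quantile scaling of log2(FPKM + 1) FTL was instead lower (-0.14, limma adjusted p = 0.00550), while FTH1 stayed lower under all 18 alternatives (-0.55 to -0.47).

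The RNA ratio of the ferritin subunit genes therefore differed between the groups. The libraries measure RNA only, so the balance of the protein chains is not known from them. The ratio of FTH1 to FTL FPKM was 0.436, 0.451 and 0.489 in si-NC and 0.293, 0.324 and 0.323 in si-STRIP2. The ranges did not overlap, and the mean went from 0.458 ± 0.027 to 0.313 ± 0.018 (SD, n = 3), which is 68.3% of the control. Both subunit genes have processed pseudogenes whose reads can be confused with theirs. The 25 copies of FTH1 in the table held 513 counts, 0.986% of the FTH1 total, and the 16 copies of FTL held 82 counts, 0.140%. BEST1 overlaps FTH1 on the other strand, and the sources do not state whether strand was used in counting. BEST1, named after its values were seen, fell more steeply than FTH1 (1.35 ± 0.178 to 0.293 ± 0.025 FPKM, log2 fold change -2.19, edgeR adjusted p = 4.48e-15). Its 787 counts came to 1.51% of those of FTH1. The shares of BEST1 and the pseudogenes cover assigned reads only, so they set no limit on reads left unassigned.

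**Figure D2:**
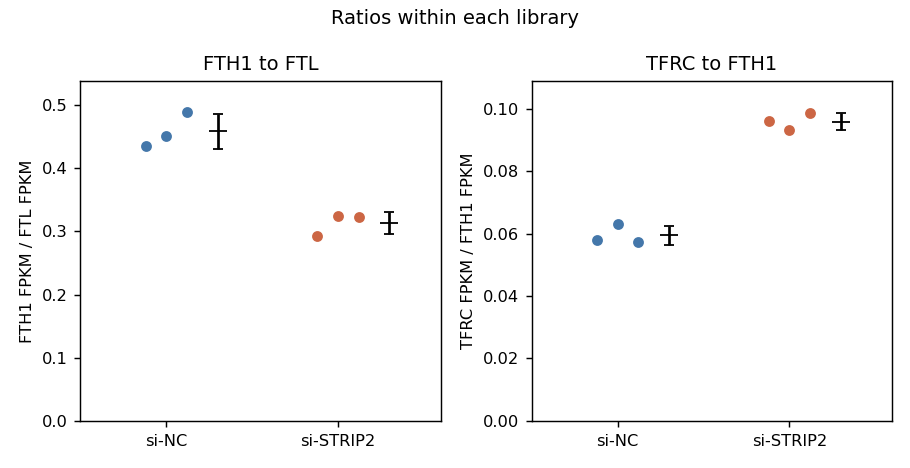
Ratio of FTH1 to FTL FPKM (left) and of TFRC to FTH1 FPKM (right) in each library, with the mean and SD of each group (n = 3) as a bar to the right of its points. The 3 si-STRIP2 libraries sit below all si-NC libraries on the left and above them on the right.

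The genes that load and unload ferritin moved less. NCOA4 (ENSG00000266412, chromosome 10, 46005088 to 46030623, minus strand), the receptor that carries ferritin to the lysosome, had 42.78, 43.09 and 40.84 FPKM in si-NC and 45.48, 47.2 and 47.58 FPKM in si-STRIP2. All si-STRIP2 libraries were higher, and NCOA4 rose by 0.14 on the log2 scale (standard error 0.041, edgeR adjusted p = 0.00346), to 110.7% of the control. Its 4 pseudogenes in the table held 2 counts. PCBP1 (ENSG00000169564, chromosome 2, 70087477 to 70089203, plus strand), the chaperone that delivers iron to ferritin, had 43.59, 42.65 and 44.61 FPKM in si-NC and 41.13, 48.82 and 41.96 FPKM in si-STRIP2. Replicate 2 of si-STRIP2 was above and the other two were below all si-NC libraries. The log2 fold change was 0.0075, with a 95% interval of -0.099 to 0.11 (edgeR adjusted p = 0.915). The antisense gene PCBP1-AS1 overlaps PCBP1 and held 34.7% as many counts, so the PCBP1 value is uncertain if strand was not used.

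Of the uptake genes, the receptor rose and the transporter did not pass the test. TFRC (ENSG00000072274, chromosome 3, 196012511 to 196082153, minus strand), the transferrin receptor, had 15.81, 16.91 and 16.49 FPKM in si-NC and 18.1, 19.01 and 19.14 FPKM in si-STRIP2. The lowest si-STRIP2 library was above the highest si-NC library. The means were 16.4 ± 0.555 and 18.8 ± 0.567 FPKM (SD, n = 3), a 1.14-fold higher level, and TFRC rose by 0.19 on the log2 scale (standard error 0.040, edgeR adjusted p = 0.000152). The ratio of TFRC to FTH1 FPKM, which was not among the planned results, was 0.0579, 0.0631 and 0.0573 in si-NC and 0.0960, 0.0931 and 0.0987 in si-STRIP2. It was thus 161% of the control on average, and the fitted log2 changes behind it were -0.50 for FTH1 and 0.19 for TFRC. These were the lowest and the highest of the 10 genes, so the shift of the ratio follows from them and is no separate result. FTL, which also has a 5′ IRE, changed by only 0.047. SLC11A2 (ENSG00000110911, chromosome 12, 50979401 to 51028566, minus strand), the divalent metal transporter, had 6.41, 6.5 and 6.67 FPKM in si-NC and 6.57, 6.05 and 6.15 FPKM in si-STRIP2. The groups overlapped through replicate 1 of si-STRIP2, and the log2 fold change was -0.063 (95% interval -0.16 to 0.033, edgeR adjusted p = 0.267).

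**Figure D3:**
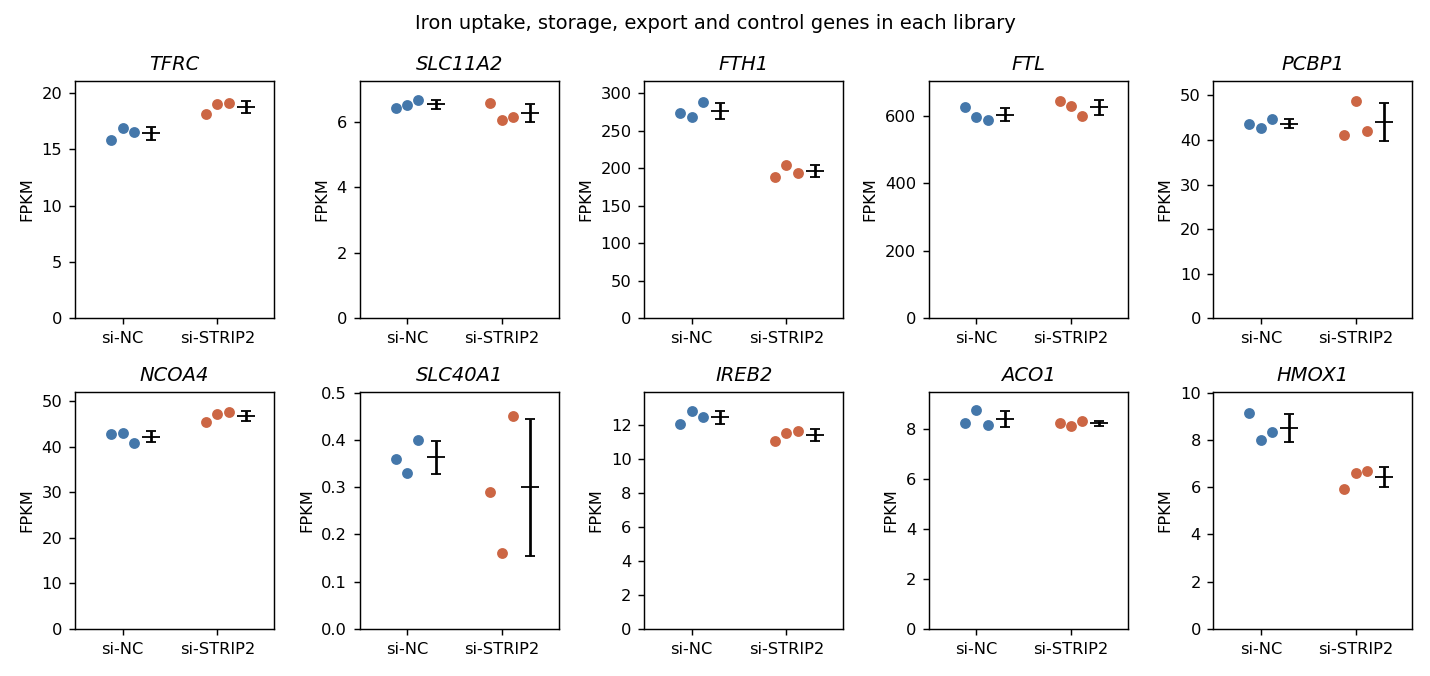
Level in FPKM (y axis, from 0, scaled per gene) of the 10 genes in each si-NC and si-STRIP2 library, with the mean and SD of each group (n = 3) to the right of its points. FTH1 and HMOX1 show the widest gaps between groups, and SLC40A1, at 0.45 FPKM or less, the widest relative spread.

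Export could hardly be measured. SLC40A1 (ENSG00000138449, chromosome 2, 189560590 to 189583758, minus strand), which encodes ferroportin, had 33, 24 and 29 counts in si-NC and 23, 12 and 33 counts in si-STRIP2. The si-STRIP2 libraries ran from below to above the whole si-NC range. On the log2 scale the change was -0.27, with standard error 0.286 (edgeR adjusted p = 0.442). Its 95% interval of -0.85 to 0.31 covers changes larger than that of FTH1 in the downward direction. It was -0.67 without si-STRIP2 replicate 3 and 0.023 without si-STRIP2 replicate 2 (edgeR adjusted p of 0.0842 and 0.953), so 1 library decided the sign.

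The iron regulatory proteins differed little. IREB2 (ENSG00000136381, chromosome 15, 78437431 to 78501453, plus strand) encodes regulatory protein 2, which is degraded when iron is plentiful. It had 12.05, 12.83 and 12.48 FPKM in si-NC and 11.05, 11.53 and 11.68 FPKM in si-STRIP2, without overlap. IREB2 fell by 0.13 on the log2 scale (standard error 0.042, edgeR adjusted p = 0.0105), to 91.7% of the control. That call was lost without si-STRIP2 replicate 1 (log2 fold change -0.095, edgeR adjusted p = 0.0923). ACO1 (ENSG00000122729, chromosome 9, 32384603 to 32454769, plus strand) encodes regulatory protein 1, which is a cytosolic aconitase when it holds an iron-sulfur cluster. Its 8.24, 8.76 and 8.18 FPKM in si-NC and 8.26, 8.12 and 8.32 FPKM in si-STRIP2 overlapped. The log2 fold change was -0.030, with a 95% interval of -0.12 to 0.065 (edgeR adjusted p = 0.609).

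HMOX1 (ENSG00000100292, chromosome 22, 35380361 to 35394214, plus strand) encodes heme oxygenase 1, the stress-inducible enzyme that frees iron from heme. It had 9.14, 7.99 and 8.35 FPKM in si-NC and 5.93, 6.62 and 6.7 FPKM in si-STRIP2. The groups did not overlap, and the level went from 8.49 ± 0.588 to 6.42 ± 0.423 FPKM (SD, n = 3). HMOX1 fell by 0.41 on the log2 scale (standard error 0.085, edgeR adjusted p = 9.49e-05), to 75.5% of the control. Against a 1.2-fold change its edgeR adjusted p was 0.0481, close to the threshold, whereas that of FTH1 was 4.63e-06.

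By deposited FPKM in si-NC, the order of levels was FTL, FTH1, PCBP1, NCOA4, TFRC, IREB2, HMOX1, ACO1, SLC11A2 and SLC40A1. FTL stood at rank 32 and FTH1 at rank 81 of the genes tested. PCBP1 (43.6 ± 0.980 FPKM) and NCOA4 (42.2 ± 1.22 FPKM) were within about 1 SD of each other, as were HMOX1 and ACO1 (8.39 ± 0.319 FPKM). After knockdown HMOX1 (6.42 FPKM) was closer to SLC11A2 (6.26 ± 0.276 FPKM) than to ACO1 (8.23 ± 0.103 FPKM). This order depends on the exonic size in the table, which counts every annotated exon of a gene. That size was 17376 bases for TFRC, 3.40 times its longest coding transcript in GENCODE 29 (5111 bases), and 2004 bases for FTH1, 1.63 times its longest (1229 bases). For FTL it was 871 bases against 878. Scaled to the longest coding transcript, TFRC was at 55.8 on the FPKM scale in si-NC, above NCOA4 at 47.5 and PCBP1 at 43.0, and FTH1 at 450.4 came nearer to FTL at 598.4. Fold changes between groups do not depend on this size.

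Among 66 other genes of iron and heme handling, grouped by role, 57 were tested, 17 rose, 19 fell and 21 did not pass. This was 63.2% called, beside 54.8% of all genes, with a median log2 fold change of -0.016. Among uptake genes, 3 rose and 6 fell of 11 tested, LCN2 most (6.36 ± 0.076 to 0.430 ± 0.128 FPKM, log2 fold change -3.87, edgeR adjusted p = 2.70e-18). Genes of intracellular iron transport, which include the mitochondrial importers and exporters of iron, rose in 4 of 5 cases, with a median log2 fold change of 0.28. Of the storage and chaperone genes, 1 rose and 2 fell of 7 tested, and BOLA2, which has a near-identical copy, and FTMT were listed at 0 in every library.

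Of the export genes other than SLC40A1, 1 of 4 passed the filter. This was HEPH, a ferroxidase that works with ferroportin, which falls under the level limit for named genes and is named after its values were seen. It had 53, 41 and 39 counts in si-NC and 6, 11 and 3 counts in si-STRIP2 (-2.64 on the log2 scale, standard error 0.322, edgeR adjusted p = 1.54e-08). Its ratio rests on few counts. The gene of the iron hormone hepcidin, HAMP, was at 0 counts in all 6 libraries. In hepcidin signalling, 4 of 7 tested genes fell and the others did not pass. That is 57.1% lower, beside 27% lower of all genes tested and 54.8% called in either direction. No difference from these shares was tested, and the genes are few. NEO1, a receptor that binds the hepcidin co-receptor hemojuvelin, went from 13.5 ± 0.720 to 8.33 ± 0.472 FPKM (log2 fold change -0.70, edgeR adjusted p = 1.99e-14).

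Other transcripts known to carry an IRE were also examined. EPAS1, the hypoxia factor HIF-2 alpha with a 5′ IRE, fell from 11.9 ± 0.680 to 7.22 ± 0.235 FPKM (log2 fold change -0.73, edgeR adjusted p = 1.31e-14). CDC42BPA, a kinase gene with a 3′ IRE, fell from 16.7 ± 0.799 to 11.4 ± 0.170 FPKM (log2 fold change -0.56, edgeR adjusted p = 1.55e-13). CDC14A, a phosphatase gene with a 3′ IRE that falls outside the rule for named genes and is named after its values were seen, had a log2 fold change of -0.062 and did not pass (edgeR adjusted p = 0.588). Counting the 10 genes too, the transcripts with a 5′ IRE described here were FTH1 and EPAS1, which fell, and FTL and SLC40A1, which did not pass. Those with a 3′ IRE were TFRC, which rose, CDC42BPA, which fell, and SLC11A2 and CDC14A, which did not pass. FBXL5, the ubiquitin ligase subunit that degrades regulatory protein 2 in iron-rich cells, had a log2 fold change of -0.11 (edgeR adjusted p = 0.0629), and it too is named outside the rule.

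Heme genes moved in both directions. In heme synthesis 3 rose and 1 fell of 8 tested. In heme transport and breakdown 5 rose and 3 fell of 11. The called shares were 50.0% and 72.7%, beside 54.8% of all genes tested, and no difference from that background was tested. The biliverdin reductases, which act after heme oxygenase, went opposite ways. BLVRA rose from 7.38 ± 0.563 to 11.1 ± 0.324 FPKM (log2 fold change 0.58, edgeR adjusted p = 4.25e-07). BLVRB fell from 23.6 ± 0.845 to 16.3 ± 0.702 FPKM (log2 fold change -0.54, edgeR adjusted p = 7.15e-09). HMOX2, the constitutive heme oxygenase, rose by 0.39 (edgeR adjusted p = 3.14e-05) where HMOX1 fell, and BACH1, the heme-sensing repressor of HMOX1 and the ferritin genes, fell by 0.49 (edgeR adjusted p = 9.95e-10). Both were named after their values were seen. FLVCR1, first described as a heme exporter, rose from 4.57 ± 0.120 to 7.52 ± 0.50 FPKM (log2 fold change 0.72, edgeR adjusted p = 1.74e-12).

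**Figure D4:**
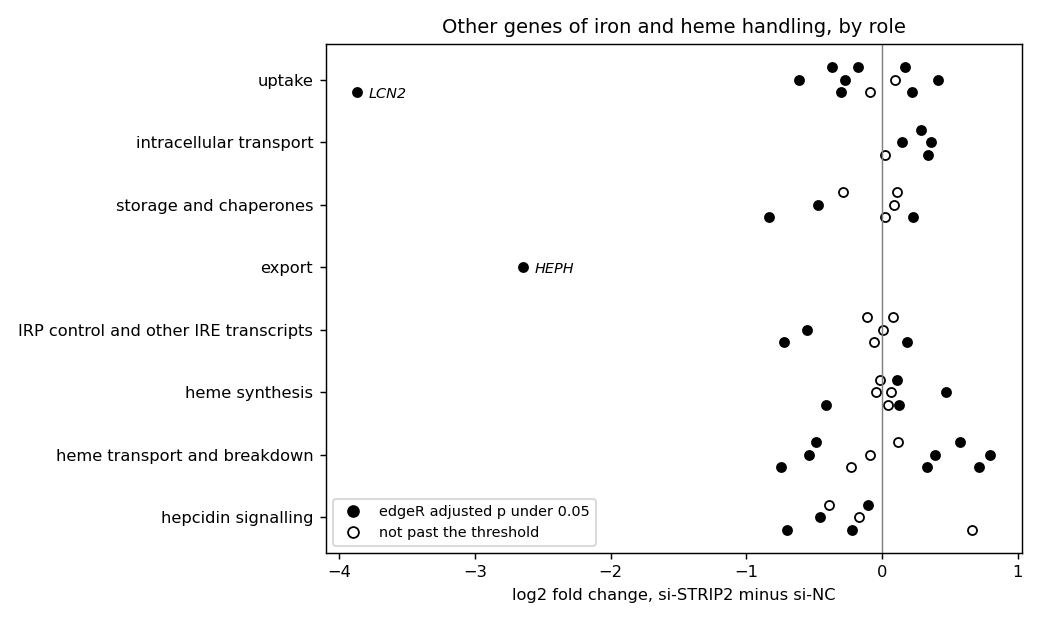
Log2 fold change (si-STRIP2 minus si-NC, x axis) of the 57 tested genes of iron and heme handling outside the 10, one point per gene, in rows by role with points offset vertically for legibility. Filled points have an edgeR adjusted p under 0.05. LCN2 at -3.87 and HEPH at -2.64 lie far to the left of the others, which are within 1 log2 unit of 0.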

How the data were processed

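Poly(A) RNA-seq was available for 3 si-NC and 3 si-STRIP2 libraries. Per the file headers, the authors deposited raw counts per gene. The deposited FPKM values differed from a recomputation from counts, exonic size and column total by at most 0.005. The submitters' processing notes name HISAT2 2.2.1, HTSeq 0.6.1, cutadapt 1.9.1 and GRCh38.p13. The annotation release and the use of strand are not given in the sources used here. Totals of 17184963 to 21721218 counts limit the precision of low genes.

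Counts were analysed in R 4.3.3 with edgeR 4.0.16 (filterByExpr, TMM, quasi-likelihood F test, 2-sided, group as the only term, Benjamini-Hochberg over 15687 genes). Standard errors were |log2 fold change| / sqrt(F), and 95% intervals used the fitted degrees of freedom. Alternatives used DESeq2 1.42.0 and limma 3.58.1 (log2(FPKM + 1) or + 0.1, genes of at least 1 FPKM in 3 libraries), other scalings and filters, a replicate block and each library left out. The fits were also run on simulated data in which a small set of genes or none changed, with the same dispersion for all genes. Most genes tested here were called, so that run does not show how the fits behave in such data. Named genes were the 10, and other iron genes called with at least 0.5 log2 change and 1 FPKM. Genes and lists were chosen with earlier results of these data known. Replicate numbers in the labels state no shared culture. Part of the lists is not reported here.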

Additional observations from a re-analysis of the deposited data

How the results depend on the processing

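Results were recomputed under 18 alternatives. FTH1 and HMOX1 kept their direction and stayed past the threshold under all 18, with log2 fold changes of -0.55 to -0.47 and -0.47 to -0.35. TFRC (0.17 to 0.22) and NCOA4 (0.12 to 0.17) lost their calls only against a 1.2-fold change, and IREB2 (-0.15 to -0.095) there and without si-STRIP2 replicate 1. The test against a 1.2-fold change, stricter by construction, called 3723 genes in all, 2 of the 10 and 15 other iron genes. Its split of those 15, of 57 tested, was 3 higher and 12 lower, against 17 and 19 in the main test. For all genes this stricter test called 23.7%, with 1780 higher and 1943 lower. The difference between these splits was not tested. The filter of at least 5 FPKM, which tests fewer genes, gave 5002 and 23 calls for all genes and other iron genes. The median over the 10 genes (-0.046) was -0.062 under quantile scaling, and -0.024 and -0.027 under limma with pseudocounts of 1 and 0.1, where SLC40A1 was not tested. Genes not called in the main test changed sign in some settings. FTL did so under quantile scaling (-0.14), where it was called lower (limma adjusted p = 0.00550). In that setting 6 of the 10 genes were called, of 9 tested. SLC40A1 changed sign without si-STRIP2 replicate 2 (range over libraries left out -0.67 to 0.023). PCBP1 did so under quantile scaling (-0.0055), the filters of 1 FPKM (-0.011) and 5 FPKM (-0.0066), and without si-NC replicate 2 (-0.017) or si-STRIP2 replicate 2 (range -0.074 to 0.063). The cause was not tested. With each library left out, calls ranged from 7690 to 8494 for all genes, from 4 to 5 for the 10 and from 30 to 39 for other iron genes, and the median of the 10 from -0.057 to -0.029. The FTH1 to FTL ratio ranged from 0.443 to 0.470 in si-NC and from 0.308 to 0.324 in si-STRIP2. Same-numbered libraries did not deviate together (r of -0.0858, -0.0133 and -0.0718). With the replicate number as a block, 8293 genes, 5 of the 10 and 34 other iron genes were called. Low counts limit the precision for SLC40A1 and HEPH, and 9 of the other iron genes had too few assigned counts to be tested. For BOLA2, with its near-identical copy, few assigned counts need not mean a low level.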
